A study of Equus caballus with 93 samples.

Results

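The 200 genes described here were almost unread in most synovial fluid libraries and were all read, at levels above the middle of the whole gene range, in a minority of libraries with an unusually even spread of reads over genes. They were taken from 15838 measured genes by a rule on these data. For each of the 93 libraries the SD of log2 CPM over all genes was computed, where CPM is the read count of a gene relative to the scaled library size and a step of 1 on the log2 scale is a doubling. Libraries with an SD below 2 are called flat (23 libraries from 12 horses), those above 3.2 wide (56 libraries from 16 horses) and the rest intermediate (14 libraries from 10 horses). A gene had to have a median log2 CPM below -3 over the wide libraries and a mean below 1 over all libraries that were not flat. Of the 688 genes that passed both thresholds, the 200 with the highest mean log2 CPM over the flat libraries were kept and are called the members. The members were thus chosen by their levels in all 93 libraries, and the contrast between flat and wide libraries is given without a test.

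The cells were spun down from synovial fluid of 16 horses aged 2 to 5 years. In each horse an osteochondral fragment (OCF) was made surgically in a middle carpal joint to induce osteoarthritis, and the opposite limb had a sham operation. At week 2 the OCF joint received 2 mL of phosphate buffered saline (Control, 8 horses) or 2 mL of 2.5% injectable polyacrylamide hydrogel (iPAAG, 8 horses), and all horses were exercised 5 days a week from week 2 on. Fluid came from weeks 0, 2, 4, 6, 8 and 10, with week 0 before surgery, and each of the 12 arm-by-week groups had 8 libraries, or 7 at week 4 in each arm and at week 8 in iPAAG. The labels do not say whether week 2 fluid preceded the injection, nor name the sampled joint for each library. Surgery, time and exercise change together in both arms.

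Synovial fluid normally holds few cells, mostly macrophages and lymphocytes with some shed lining cells, and neutrophils enter after injury. In RNA sequencing of such cells a small number of genes usually takes a large part of the reads, and genes silent in the cells present get few or none. The SD over genes is small in a library where low and high genes have similar read counts. The deposited table names genes only by Ensembl identifiers, and 0 of the 15838 identifiers could be paired with a gene name. Roles of the members, cell type markers and gene lists were therefore not tested, the labelled cell type could not be checked against markers, and no sequence is shown.

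Every member had reads in every flat library, while in the median wide library most members had none. In the 23 flat libraries the mean log2 CPM of the 200 members was 4.44 in the lowest, 5.53 in the median and 6.01 in the highest library. In the 56 wide libraries it was -5.05, -4.39 and 0.13. The 14 intermediate libraries lay between, at -0.43, 1.06 and 3.60, so the range of the intermediate libraries met that of the wide ones and did not reach that of the flat ones. In a bulk sample, fewer cells of a type and less RNA per cell cannot be told apart, and that holds for these levels too. Depth, here the reads in genes, moved with library spread, as given next, and RNA quality is not given in the labels. The part of either in these levels was not tested.

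**Figure D1:**
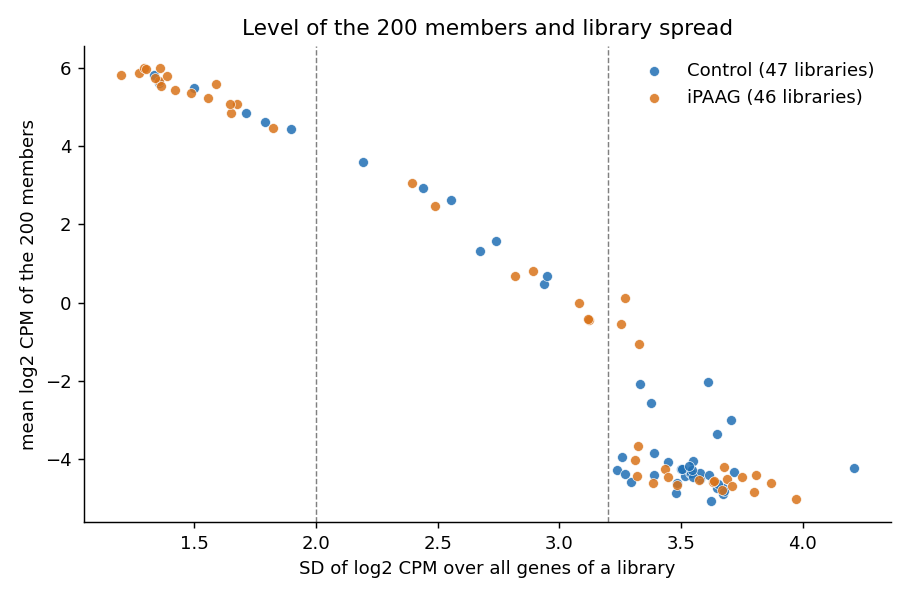
Mean log2 CPM of the 200 members (vertical axis) against the SD of log2 CPM over all 15838 genes (horizontal axis), 1 point per library and colour by arm, with dashed lines at SD 2 and 3.2. The member level lies between 4.44 and 6.01 in the flat libraries, lower in the intermediate ones, and between -5.05 and 0.13 in the wide ones, in both arms.

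Counted in reads, the members were most abundant in the flat libraries, the class with the fewest reads in genes. Reads outside the 15838 genes could not be counted here, so the total sequenced per library is not known. The flat libraries held between 1737741 and 12597216 reads in genes, with a median of 6316447, and the wide ones between 6076026 and 39916655. The flat libraries thus held 7.98% of all reads in genes and 89.4% of all reads in members. The wide libraries held 75.6% of the reads in genes and 1.63% of the member reads. Pooled over libraries, the members together had 16183 CPM without scaling in flat, 788 in intermediate and 31.1 in wide libraries, a 520-fold ratio of flat to wide. Single members weigh on the pooled wide value, with 7775 reads in Control horse 1 and 2369 in iPAAG horse 3, both at week 0. In a single flat library the members took between 0.533% and 3.47% of the reads, with a median of 1.73%. Equal reads for every gene would give 200 of 15838 genes 1.26%. The median wide library gave them 0.00131%.

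The median member had 436.5 reads in the median flat library, and the lowest count of any member in any flat library was 41. In wide libraries the median number of members without a read was 128 of 200, and it was 176 in the library with the most. A count of 0 allows up to 0.0752 CPM without scaling in the deepest wide library and 0.494 in the shallowest, taking 3 reads as the limit. The scaled sizes of these libraries were 0.84 and 0.40 of their reads in genes, so the limits in scaled CPM are higher. These are PCR-amplified reads, so this limit covers counting error only. At a common depth of 1737741 reads, all 200 members would be expected with a read in each flat library, 185 in the median intermediate library and 16.5 in the median wide library. The rule fixed the direction of this difference.

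**Figure D2:**
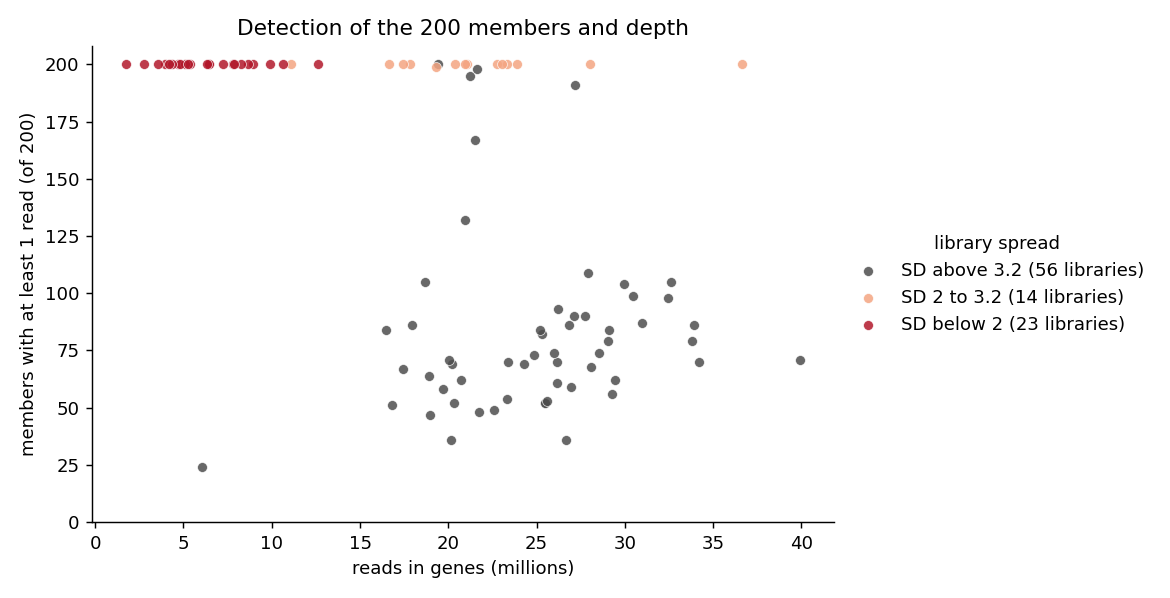
Number of the 200 members with at least 1 read (vertical axis) against reads in genes (horizontal axis), 1 point per library and colour by library spread. All flat libraries sit at 200 members at depths up to 12597216 reads, while most wide libraries lie between 24 and 132 members. The wide library with 24 members had 6076026 reads in genes, and all other wide libraries had more reads than the deepest flat one.

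By rank among all 15838 genes the members moved from the bottom to the upper part. Over the flat libraries their mean log2 CPM ran from 4.83 to 8.21 with a median of 5.29, beside a median of 4.43 for all genes, and 200 of 200 members were above that median. Of all genes, 36.2% were above the lowest member. Over the wide libraries the member means ran from -5.08 to -2.87 with a median of -4.17, beside a median of 3.92 for all genes, and 200 of 200 were in the lowest 5% of genes. The difference between both means had a median of 9.44 over members and of 0.09 over all genes. These values chose the members and are given as a description.

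The thresholds of the rule did not fall at gaps. The last members inside had flat means of 4.834 and 4.831, and the first genes outside had 4.830 and 4.825. The highest median over wide libraries among members was -3.003, and the nearest excluded gene of comparable flat level had -2.992. The first threshold was passed by 688 genes and both thresholds by 688, so the second removed no gene. The highest member mean over libraries that were not flat was -1.89.

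The member with the highest flat mean was ENSECAG00000045557. Its log2 CPM was 6.88 in the lowest, 8.42 in the median and 8.91 in the highest flat library, and between 1144 and 6186 reads were counted. It had 3.75 in the median intermediate library and no read in 33 of the 56 wide libraries, where its highest value was 3.16. Its flat and wide libraries did not overlap. The next was ENSECAG00000046215, with 6.23, 7.59 and 8.28 in the lowest, median and highest flat library and no read in 38 of the 56 wide ones. Its highest wide value of 2.96 was also below its lowest flat value. The table gives no name for either gene.

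The members rose together and kept their proportions. Within a flat library the SD of log2 CPM over the 200 members lay between 0.51 and 0.62, with a median of 0.56. That SD was nearly the same in libraries of high and of low member level. Over the flat libraries a single member had a median SD of 0.53, beside 0.48 for all genes. After the mean of the members was subtracted from each library, the median SD of a member fell to 0.18, and 198 of 200 members were below 0.5. Most of the variation of a member between flat libraries was thus variation of the level shared by all of them.

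**Figure D3:**
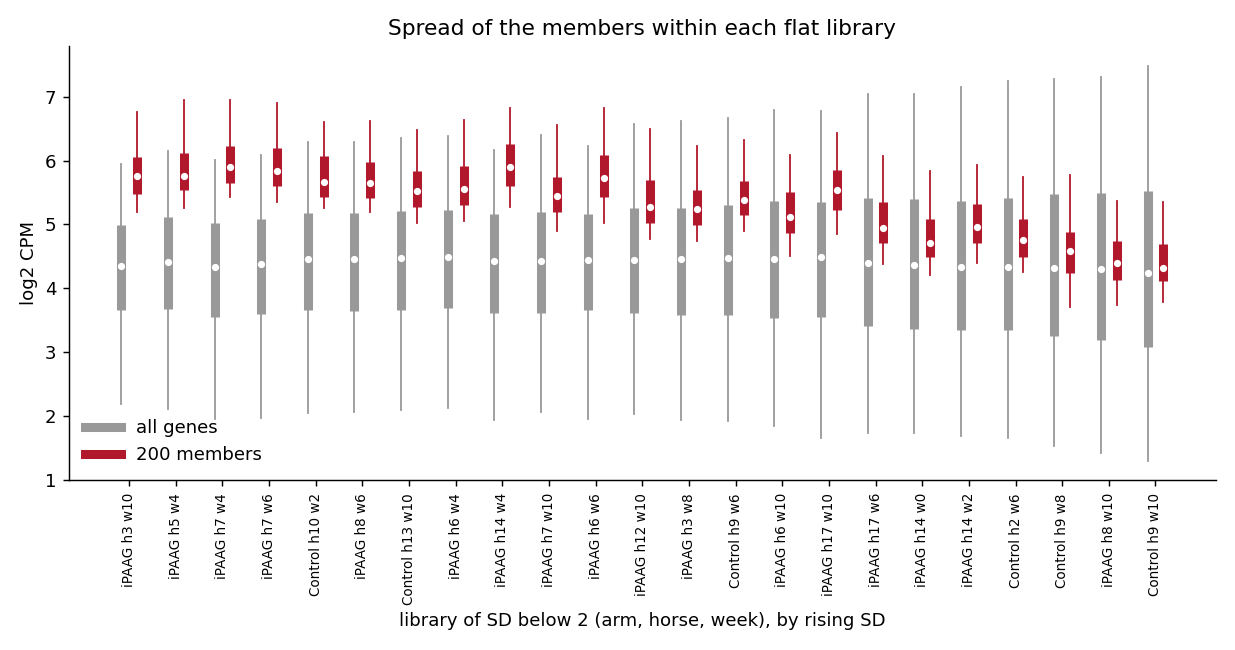
Log2 CPM (vertical axis) of the 200 members (red) and of all 15838 genes (grey) in each of the 23 flat libraries, ordered by rising SD on the horizontal axis and named by arm, horse (h) and week (w). Thick bars span the quartiles, thin lines the 5th to 95th percentile and white dots mark medians. The members stay in a narrow band, with SDs from 0.51 to 0.62, whose height above the median of all genes shrinks from left to right.

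As a share of the members' own reads, a member varied between flat libraries with a median coefficient of variation of 12.8%, from 5.62% to 54.6%. Read counting alone would give a median of 5.36%, a value that covers counting error only, and 200 of 200 members were above their own. Members ranked 79 and 37 by flat mean departed most, with SDs after centring of 0.91 and 0.65. The member ranked 79 ran from 2.56 to 7.24 over the flat libraries and the member ranked 37 from 4.25 to 7.72.

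Across the 23 flat libraries, which share depth and scaling effects over genes, the Pearson r between a pair of members had a median of 0.88 over the 19900 pairs and a lowest value of 0.08. Over all 93 libraries the median was 0.94, and there the choice of members sets a high value. Across the 200 members, the r between a pair of flat libraries had a median of 0.86 over 253 pairs, from 0.58 to 0.97. The mean profile of the members in Control flat libraries and that in iPAAG flat libraries had an r of 0.98 across members.

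The intermediate libraries entered the rule only through a mean that no member came near, so the order of the members within them was not used. Across the 200 members, the mean over the 14 intermediate libraries had an r of 0.94 with the mean over the flat libraries. The mean over the wide libraries had an r of -0.04 with it. Genes are not independent replicates, and no p is given. Members with a higher flat mean therefore tended to have a higher mean in the intermediate libraries, at a lower level. The few members of highest flat mean weigh most in this r, and agreement of ranks was not computed. Members of closer flat mean could change places, as rank 16 with 1.76 and rank 67 with 1.96 in intermediate libraries. No such relation was seen in wide libraries, where most members had no read.

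**Figure D4:**
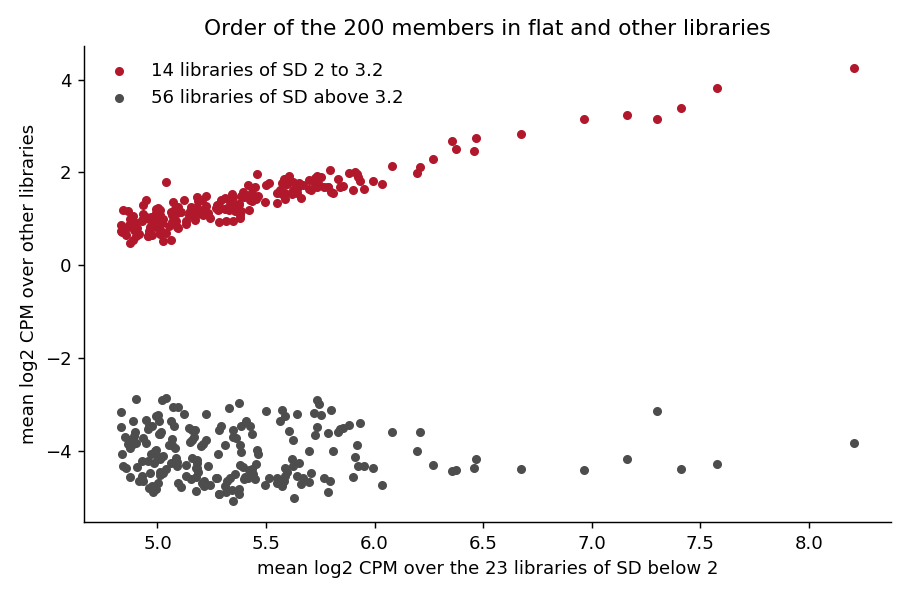
Mean log2 CPM of each member over the intermediate libraries (red) and over the wide libraries (black) on the vertical axis, against its mean over the 23 flat libraries on the horizontal axis. The red points lie between 0.49 and 4.26 and tend to rise with the flat mean, and the black points lie between -5.08 and -2.87 without such a rise.

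Within the flat libraries the shared level followed the spread of the whole library. Across the 23 libraries, some of which come from the same horse, the member mean and the library SD had an r of -0.95, and the member mean and log2 reads had an r of -0.69. Library spread counts the members' own values. With spread taken over the other genes alone, 23 of 23 flat libraries stayed below 2 and 4 of 93 libraries changed class. Over the 11818 genes that were not low, the flat libraries had SDs from 1.05 to 1.64 and the other libraries from 1.81 to 2.68. The 23 flat libraries were thus the 23 of lowest spread on genes that are not low as well.

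The 488 other genes that passed the thresholds were also higher in flat libraries, at a lower level than the members, with flat means from 0.39 to 4.83 and a median of 3.98. The members exceeded their mean by 1.60 in the median flat library, with a narrow range from 1.48 to 1.72. In wide libraries that difference had a median of -0.45 and ran from -1.67 to 1.28. The rule set the members above the other genes, and their flat means met at the last member kept.

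Wide libraries differed in how many members they held reads for. In 5 of the 56 wide libraries fewer than 40 members lacked a read, and in the other 51 at least 60 did. The 5 were iPAAG horse 14 at week 6 with 0 members lacking a read, horse 8 at week 8 with 2, horse 5 at week 10 with 5, Control horse 1 at week 0 with 9 and Control horse 15 at week 4 with 33. Their library SDs of 3.27, 3.25, 3.33, 3.61 and 3.38 overlapped those of libraries that lacked over 100 members, such as Control horse 10 at week 0 with an SD of 3.24 and 101 members lacking. Above an SD of 3.2 the level of the members therefore did not follow library spread alone.

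Above a log2 CPM of 3 there were 9 of the 200 members, in 7 wide libraries, among them those of Control horse 1 at week 0 and iPAAG horse 14 at week 6. The member ranked 149 reached 8.36 in Control horse 1 at week 0, with 7775 reads, and 4.55 in Control horse 15 at week 6. The member ranked 67 reached 6.50 in iPAAG horse 3 at week 0 and 3.95 in that same library of Control horse 15. The member ranked 34 was also high in both, at 4.62 and 3.59. These members were thus also high in single libraries that were not flat. An intermediate library, that of iPAAG horse 6 at week 2, held a member at 9.74. Its 15719 reads were 78.4% of the member reads of that library. Over all members, 198 of 200 members had their lowest flat library above their highest wide library, beside 16.0% of all 15838 genes; the rule used these values, and nothing is read from the count.

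The rule was then applied in 1 arm and the chosen genes were read in the other arm, whose libraries had no part in the choice and which shares no horse with it. The 200 genes chosen in Control libraries, 186 of them members, averaged 5.48 over the 17 flat iPAAG libraries, 0.89 over the 7 intermediate and -3.87 over the 22 wide ones. All 200 were higher in flat than in wide iPAAG libraries, by a median of 9.39 and at least by 6.75. The same difference over all genes had a median of 0.11, and 51.8% of genes were higher. For 197 of the 200 the lowest flat library was above the highest wide library, beside 20.7% of all 15838 genes.

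In the reverse direction, the 200 genes chosen in iPAAG libraries included 184 members. They averaged 5.16 over the 6 flat Control libraries, 1.92 over the 7 intermediate and -4.07 over the 34 wide ones. All 200 were higher in flat libraries, by a median of 9.29, and for 200 the flat and wide libraries did not overlap, beside 19.3% of all genes. The arms share the scaling and the definition of a flat library, so the reading in the other arm is not fully independent of the choice. By that definition, genes low in wide libraries tend to be higher in flat ones of either arm. The percentages over all genes do not allow for this.

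By week and arm, the level of the members went with the number of flat and intermediate libraries in the group. At week 0 the Control libraries, all wide, had a lowest, median and highest member mean of -4.85, -4.47 and -2.02. The iPAAG libraries at week 0 had -4.66, -4.04 and 4.86, with 1 flat and 2 intermediate libraries among 8. The high value was horse 14, before surgery and before any injection. All 200 members had 1 or more reads in 2 of the 16 libraries of week 0.

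At week 2 the median was -4.35 in Control, where horse 10 alone was flat with 5.81, and 0.40 in iPAAG, with 1 flat and 4 intermediate libraries. At week 4 no Control library was flat and the median was -4.28, from -5.05 to 0.49. The iPAAG libraries of week 4 split into 4 flat libraries, with values up to 6.01, and 3 wide ones at -4.46 or lower, around a median of 5.67. At week 6 the medians were 1.00 in Control, with 2 flat and 3 intermediate libraries of 8, and 2.60 in iPAAG, with 4 flat and 4 wide.

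At week 8 the medians were -3.12 in Control and -4.39 in iPAAG, with 1 flat library in each arm. At week 10 the Control median was -3.95, from -4.88 to 5.62, with 2 flat libraries, and the iPAAG median 5.33, from -4.56 to 5.83, with 6 flat libraries of 8. The ranges of the arms overlapped at every week. The order of the arms also changed, with the higher median in iPAAG at weeks 0, 2, 4, 6 and 10 and in Control at week 8.

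**Figure D5:**
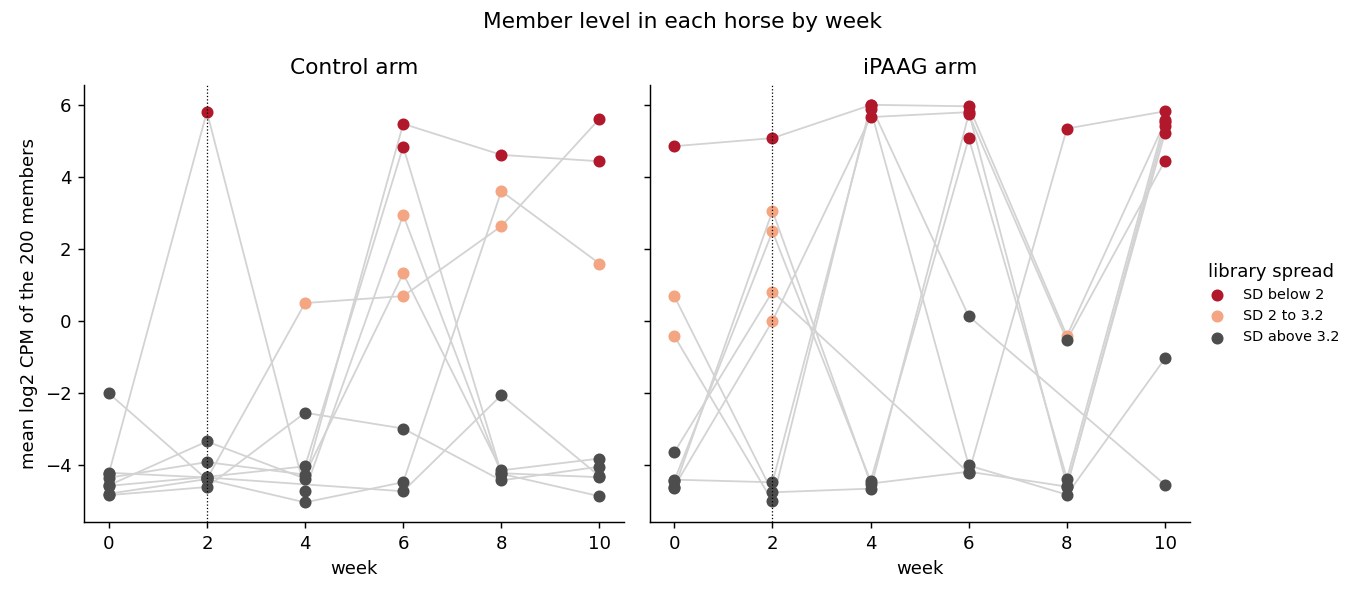
Mean log2 CPM of the 200 members (vertical axis) by week (horizontal axis) in the Control arm (left) and the iPAAG arm (right), with grey lines joining the available libraries of a horse, colour giving library spread and a dotted line at the week of injection. Single horses move between levels near -4 and near 5 in both directions, including 1 iPAAG horse at 4.86 before surgery.

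The level moved within horses in both directions. iPAAG horse 14 was flat at weeks 0, 2 and 4 with 4.86, 5.08 and 6.00, then wide with 0.13 at week 6 and -4.56 at week 10. iPAAG horse 7 went from -0.43 and -5.02 at weeks 0 and 2 to 6.01 and 5.97 at weeks 4 and 6, to -0.42 at week 8 and to 5.53 at week 10. Control horse 10 had 5.81 at week 2 between -4.26 at week 0 and -4.73 at week 4. Control horse 13 was higher at every step after week 2, from -4.40 through 0.49, 0.69 and 2.63 to 5.62. In 4 of the 16 horses, Control horses 1, 11, 15 and 16, no library was flat. All 12 horses with a flat library also had a wide one.

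The change from week 0 to week 10 was fitted over all genes with limma, and its counts are given without a reading, because the rule used these libraries. In iPAAG horses 173 of 200 members were called higher (adjusted p below the threshold of 0.05) and 0 lower, beside 13.9% of all genes called higher and 23.2% lower. The median difference of the members was 5.47 on the log2 scale, and that of all genes -0.03. Of the 8 iPAAG libraries at week 10, 6 were flat. Without the flat libraries 0 members were called (0 at an unadjusted p below 0.05), the median was 0.40, and 1.82% of all genes were called higher and 3.4% lower. With library SD as a covariate 0 members were called (12 at an unadjusted p below 0.05), beside 1.15% of all genes higher and 5.53% lower. Without horses 3, 6, 7, 12 and 17 in turn, 18, 13, 76, 15 and 14 members were called. In the same fits the genes called higher over the whole table fell from 2196 to 673, 589, 822, 587 and 613. The members' median difference was then 4.91, 4.86, 5.43, 4.76 and 4.79. It moved most without horse 14, whose week 0 library was flat, to 7.52 with 199 members called. In Control horses, with 2 flat libraries at week 10, 1 of 200 members was called, beside 3.13% of all genes called higher and 6.66% lower. The median was 3.04 with all libraries and 1.01 without the flat ones, where 1 member was called, beside 9.07% of all genes higher and 13.3% lower. With library SD as a covariate 4 members were higher and 3 lower, beside 9.84% and 15.6% of all genes. That single member, ranked 88, had 5.37 ± 1.81 (SE, limma adjusted p = 0.0436) and was singled out after its value was seen. The call was lost without any 1 of horses 1, 2, 9, 10, 11, 13 and 15.

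The treatment question, whether the arms differed in their change from week 2 to weeks 4 to 10, was put to the same fit. The rule used these libraries as well, so the values of the members are given as a description beside those of all genes. limma called 0 of 200 members and 0.0% of all genes, with 0 members and 3765 genes at an unadjusted p below 0.05. The median difference of the members was -0.33, with 64 of 200 positive, and it was 0.62 with quantile normalisation, so its sign depended on the scaling. It ran from -1.79 without horse 10 to 0.63 without horse 12, and the members' SEs were between 1.83 and 2.80. Over the members, the lowest limit of a 95% interval was -6.61 and the highest 5.88, and the interval of ENSECAG00000045557 ran from -6.61 to 4.53. With library SD as a covariate 37 members were called lower in iPAAG, beside 13.3% of all genes lower and 1.62% higher, with a median of -1.73. Without the flat libraries limma called 0 members and 0 of all genes, with 161 members and 1682 of 15838 genes at an unadjusted p below 0.05. The median was then -4.16 for the members and -0.09 for all genes. The intermediate libraries were unevenly placed in that fit. At week 2 there were 4 in iPAAG, where libraries not flat averaged -1.13, and 0 in Control, at -4.21. At weeks 4, 6, 8 and 10 there were 0, 0, 1 and 0 in iPAAG and 1, 3, 2 and 1 in Control. The part of this placement in the median was not tested.

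Among flat libraries alone, the rule did not use the difference between arms. It did rank genes by their mean over these libraries, 6 from Control and 17 from iPAAG, which can favour genes higher in iPAAG. The sign of the members' differences is therefore given as a description. In the 6 Control flat libraries, from 4 horses, the mean of the members was 4.44 in the lowest, 5.16 in the median and 5.81 in the highest. In the 17 iPAAG flat libraries, from 8 horses, it was 4.45, 5.59 and 6.01, and the arms overlapped over almost the whole range. limma called 0 of 200 members and 0.0% of all genes, with 14 members and 1055 genes at an unadjusted p below 0.05. All 200 members had a higher value in iPAAG, with a median difference of 0.36, beside 0.03 for all genes. Because the members moved together, this is close to a single observation. ENSECAG00000045557 had a difference of 0.48 ± 0.32 (SE, 95% interval -0.18 to 1.14, limma adjusted p = 0.498). ENSECAG00000046215 had 0.47 ± 0.28 (SE, 95% interval -0.10 to 1.05, limma adjusted p = 0.498). The mean library SD was 1.60 ± 0.24 (SD, n = 6) in the Control flat libraries. It was 1.45 ± 0.17 (SD, n = 17) in those of iPAAG, and with library SD as a covariate the median difference was 0.02, with 121 of 200 positive. Leaving out Control horse 9, with 3 of the 6 Control flat libraries, gave a median of 0.07.

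Among the 70 libraries that were not flat, weeks 4 to 10 were compared with week 0 over both arms. The rule did not use the difference between weeks, but it kept only genes that were low over these same libraries. Few reads leave little room for a call, so the counts are given as a description. limma called 3 of 200 members higher and 1 lower, beside 16.4% of all genes higher and 22.6% lower. The median difference of the members was 0.78, and of all genes -0.06. The members called higher ranked 82, 165 and 196, with 1.95 ± 0.78, 2.09 ± 0.73 and 2.03 ± 0.79 (SE, limma adjusted p = 0.0398, 0.0181 and 0.035). The member called lower ranked 186 and had -2.42 ± 0.72 (SE, limma adjusted p = 0.00587). They were singled out after their values were seen. ENSECAG00000045557 had 1.37 ± 1.14 (SE, limma adjusted p = 0.358) and ENSECAG00000046215 had 1.57 ± 1.11 (SE, limma adjusted p = 0.268).

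Most members in these libraries were near 0 reads, where the log2 value of a gene without reads follows the library size. The 15 libraries of week 0 had a median of 29443605 reads and the 41 later ones 21489335. The median number of members without a read was 110 at week 0 and 126 at weeks 4 to 10. The part of depth in the positive median was not tested. Only libraries with an SD above 3.2 gave 12 members higher and 3 lower, with a median of 0.50, beside 15.4% of all genes higher and 24.1% lower. Without 1 horse the number called, of 4 with all horses, fell to 1 without horse 5, to 2 without horses 3, 6, 9, 13 or 17, and reached 6 without horse 7.

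The identifiers themselves were a property the rule did not use. Ensembl keeps an identifier when a gene model carries over between annotation releases and numbers new models upward. Of the members, 69 of 200 (34.5%) had an identifier number above 28000, a value chosen after the numbers were seen, beside 2886 of 15838 genes (18.2%). Among the 4020 genes with a mean below 1 outside the flat libraries the share was 33.2%, so the members did not stand out from low genes as a class.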

How the data were processed

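Synovial fluid cells of 16 horses were sequenced as 93 libraries, made from total RNA with a stranded kit for very small RNA inputs, per the labels' protocols. The authors deposited log2 CPM values from voom for 15838 genes, with 1 column per library. The submitters' processing notes name STAR 2.7.10b, EquCab3.0 and limma 3.62.2. How reads were assigned to genes, whether strand was used, which annotation release and which low-count filter: not given in the sources used here. So reads of overlapping or near-identical genes are uncertain. Each deposited log2 value is a whole read count plus 0.5 relative to a scaled library size, and 100.0% of the recovered reads were whole within 0.05. Scaled size over reads in genes was 1.13 to 2.49 in flat and 0.40 to 0.98 in wide libraries, so the scaling lowers the members' values in flat libraries relative to their share of reads.

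Library SDs, the members and all descriptions were computed with Python 3.11.15, numpy 2.4.6, scipy 1.17.1 and pandas 2.3.3. The 5 comparisons used limma 3.58.1 in R 4.3.3 on the log2 values of all genes. Groups came from the labels, a mean-variance trend was used and Benjamini-Hochberg adjustment ran over the whole gene table. Horse was a random block through duplicateCorrelation, since libraries with the same number come from the same animal. The consensus correlation was 0.04 over all libraries, 0.04 in flat ones and 0.09 in the others. The model was tested on simulated reads drawn from the mean profile of the wide libraries, with changes placed only in well-read genes. That simulation held no flat profile and no change in genes with few reads, so it does not test the fits of the members. The design had planned names for the members, but without gene names 2 members are given by identifier, those with the highest flat mean. Gene properties and marker lists were left out for the same reason. The members and lists were chosen with earlier results of these data known. P-values rest on the spread between libraries of the same group, pooled over groups. In the arm-by-week groups each library comes from a different horse, while among flat libraries a horse can give several. Alternatives were no block, other scalings, 2 added reads, a filter, library SD as a covariate, leaving out flat libraries or a horse, and other settings of the rule.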

Additional observations from a re-analysis of the deposited data

Results flagged for a closer look

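Of 13 groups of 6 to 8 libraries tested for a library far from the others in the mean log2 CPM of the members, 2 had one. Chance would give about 1 in 20 groups for a measure chosen without these libraries, and that rate does not apply here, since the members were chosen by their levels in flat and wide libraries. Control horse 1 at week 0 had -2.02, and the nearest of the other 7 Control libraries of that week had -4.23. It lacked 9 of the 200 members, and a single member took 7775 reads there. Control horse 10 at week 2 had 5.81, and the nearest other library had -3.36. It was the only flat Control library of that week.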

How the results depend on the processing

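Membership changed little: 198 of the 200 members were kept with an SD below 1.7 for flat libraries, 190 with an SD above 3.0 for wide ones, 189 with the median in place of the mean, 180 without the authors' scaling factors, 186 in Control and 184 in iPAAG libraries alone. The mean of the members in flat minus wide libraries was 9.47, and 10.52 without the scaling factors (2.12 for all genes, in place of 1.07), 9.03 with median centring and 8.07 with 2 added reads, 3 settings added after seeing the data. The median SD of a member after centring was 0.18 in all 4.

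For iPAAG week 10 against week 0, the 173 members called became 0 without flat libraries, 0 with library SD as a covariate and 2 with the filter at a mean log2 CPM of 0, which only 2 members passed. Leaving out 1 horse gave 13 to 199. Without the horse as a replicate block the number was 163. For Control, the 1 member called became 0 without the replicate block, with quantile normalisation, with 2 added reads and with the filter, and 7 with library SD as a covariate; leaving out 1 horse gave 0 to 1. With median centring 482 genes were higher and 628 lower there, in place of 496 and 1055. For the arms' change from week 2, 37 members were called with library SD as a covariate and 0 without any 1 horse; without horse 14, 429 other genes were higher and 2151 lower, in place of 0 and 0. Among flat libraries 0 members were called in every alternative, and with library SD as a covariate ENSECAG00000045557 had 0.17. Outside flat libraries, 15 members were called above an SD of 3.2, in place of 4, and 1 to 6 without 1 horse; the filter left no member. Median centring gave 3868 genes higher and 2283 lower there, in place of 2591 and 3587. The causes were not tested. In the median wide library 128 of the 200 members had no read, which limits what their log2 values there can show.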
